A study of Mus musculus with 8 samples.

Results

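Keratins are the proteins of the intermediate filaments of epithelial cells. The genes followed here were taken from the deposited table by symbol: Krt5, Krt14, Krt15, Krt17, Krt6a, Krt6b, Krt16, Krt8, Krt18 and Krt19. All 10 were found among 24883 symbols, and 8 of them had enough counts to be tested. The cells were ASZ001, a mouse basal cell carcinoma line kept in culture, and their messenger RNA was sequenced in 8 libraries. Every library came from cells given doxycycline for 24 h, which switches on the vector they carry. In the c-Fos groups the vector carried c-FOS, whose protein forms part of the transcription factor AP-1. The cells of these groups also received a treatment for 6 h. One such group received 5 µM afatinib, a drug that blocks the kinases of the EGFR family. Another received 10 µM UO126, an inhibitor of MEK1 and MEK2, kinases further down the same pathway, and one more received the vehicle DMSO. The remaining group carried an empty vector, and its label names doxycycline but no vehicle and no 6 h treatment. In comparisons with this group, any effect of DMSO itself or of that treatment step cannot be told apart from that of c-Fos. Each of the 4 groups held 2 libraries. No label says whether these came from separate cultures or whether the vector lines are clones, so the p-values rest on differences between libraries that may be technical repeats.

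Keratins fall into an acidic type I (Krt14, Krt15, Krt16, Krt17, Krt18 and Krt19 here) and a basic type II (Krt5, Krt6a, Krt6b and Krt8). A filament is built from pairs of one type with the other, so cells make them in sets. Krt5 and Krt14 form the filaments of the basal layer of the epidermis, and Krt15 belongs to basal and hair follicle stem cells. Krt6a, Krt6b, Krt16 and Krt17 are the keratins of wounded, hyperproliferative or otherwise activated epidermis and of parts of the hair follicle, whereas Krt8, Krt18 and Krt19 are typical of simple epithelia.

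Total counts lay between 17901974 and 23126048 per library, of which the rRNA precursor Rn45s made up 1.62% to 4.08%. Levels below are counts per 1000000 of the scaled library size (CPM). In such bulk samples, fewer cells that express a gene and less RNA per cell cannot be told apart. The induced gene Fos stood at 1107 and 1081 CPM with afatinib, 813 and 875 CPM with UO126, 1163 and 1121 CPM with DMSO and 40.6 and 50.5 CPM in the empty-vector libraries. Basal keratinocyte genes outside the keratins were well counted in every library, with Col17a1, a hemidesmosomal collagen, at no less than 2391 CPM and the basal transcription factor gene Trp63 at no less than 123 CPM. Of the 9 basal markers, 3 rose and 3 fell with c-Fos against the empty vector (edgeR adjusted p under 0.05): Krt14, Itga6 and Itgb4 rose, and Trp63, Col17a1 and Cdh3 fell. In either direction these were 66.7% of the list, where 42.2% of all tested genes were called. The summed level of 8 fibroblast markers was at most 11 CPM, with Lum and Thy1 at 0 counts throughout. Of the Merkel cell markers, Atoh1 and Krt20 never passed 1 count, although Sox2 lay between 90.8 and 108 CPM. The 4 endothelial markers summed to between 55.7 and 71.8 CPM, nearly all of it Pecam1, with Kdr at 0. The 5 melanocyte markers summed to between 40.6 and 65.1 CPM, mostly Mitf, with Tyr at 0. The summed level of the 5 leukocyte markers was higher in the c-Fos libraries than in the empty vector. It lay between 3.62 and 4.07 CPM with afatinib and between 3.35 and 4.13 CPM with UO126. With DMSO it lay between 1.14 and 2.07 CPM, and in the empty-vector libraries between 0.216 and 0.267 CPM. In the c-Fos libraries nearly all of that was Csf1r, while Tyrobp was at 0 and Cd3e never passed 0.5 counts. Csf1r alone of the 5 was tested. With 3 and 4.5 counts in the empty-vector libraries, it passed the filter only through the c-Fos libraries. The part of such cells in the keratin results was not tested.

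Several of these genes are near copies of each other, and this bears on every value that follows. Read length is not given in the sources, so GENCODE M21 transcripts (build GRCm38, whereas the authors used mm9) were cut into windows of 50 and 100 bases and each window was looked for, on both strands, in the transcripts of all other genes. Of the 50-base windows of Krt6a, 62.0% also occurred in another gene, and so did 50.1% of those of Krt6b, 37.6% of those of Krt16 and 29.7% of those of Krt8. At 100 bases the shares were 47.5%, 30.6%, 24.3% and 17.1% in the same order of genes. Krt14 shared 14.4% and Krt5 shared 12.2% of their 50-base windows, Krt17 3.99%, and Krt18 and Krt15 under 1%. No window of Krt19 was shared. The partners of Krt6a and Krt6b were chiefly each other, with 972 windows of 50 bases in common. Krt16 shared 382 windows with the unnamed gene model Gm11597 and 188 with Krt14, and Krt8 shared 514 with Krt8-ps, which is named as its pseudogene. On the opposite strand the annotation also places the gene models Gm44323 over an exon of Krt5, Gm44342 and Gm49428 over exons of Krt6a, Gm44383 over one of Krt6b and Gm36026 over one of Krt8. The libraries were made with a kit that does not mark strand, so such reads cannot be told apart.

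**Figure D1:**
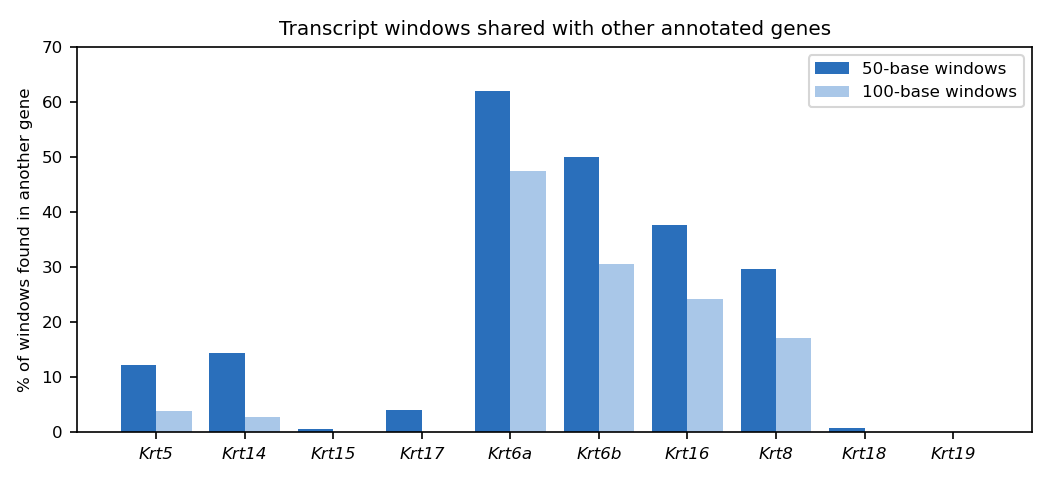
Share of transcript windows of 50 bases (dark bars) or 100 bases (light bars) that also occur in a transcript of another annotated gene, in % on the vertical axis, for each of the 10 keratin genes. Krt6a, Krt6b, Krt16 and Krt8 carry the highest shares, from 62.0% down to 29.7% at 50 bases, and Krt19 has none.

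The coding stretches below show how close the copies are. Capitals mark the longest run that the genes in a set have in common, and lower case marks up to 20 flanking bases on each side, all within the open reading frames of the GENCODE transcripts and read 5′ to 3′. Krt6a and Krt6b, which neighbour each other on chromosome 15, share a run of 280 bases within coding bases 24 to 323 of both.
Krt6a: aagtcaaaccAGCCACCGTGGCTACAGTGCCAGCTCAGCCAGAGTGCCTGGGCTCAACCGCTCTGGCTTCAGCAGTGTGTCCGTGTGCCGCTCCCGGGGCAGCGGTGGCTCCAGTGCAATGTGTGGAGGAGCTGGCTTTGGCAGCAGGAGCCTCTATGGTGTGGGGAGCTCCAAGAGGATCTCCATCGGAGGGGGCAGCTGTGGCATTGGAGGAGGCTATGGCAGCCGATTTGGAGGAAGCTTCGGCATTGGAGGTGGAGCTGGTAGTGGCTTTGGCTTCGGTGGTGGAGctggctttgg
Krt6b: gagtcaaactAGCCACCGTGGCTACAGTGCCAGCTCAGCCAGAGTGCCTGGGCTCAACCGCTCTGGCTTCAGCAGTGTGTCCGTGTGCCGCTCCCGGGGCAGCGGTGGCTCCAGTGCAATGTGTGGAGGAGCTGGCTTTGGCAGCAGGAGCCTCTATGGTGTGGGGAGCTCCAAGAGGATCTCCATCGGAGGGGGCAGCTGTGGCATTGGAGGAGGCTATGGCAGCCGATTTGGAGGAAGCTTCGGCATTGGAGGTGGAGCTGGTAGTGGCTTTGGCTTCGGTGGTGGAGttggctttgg
A read that falls wholly within those capitals cannot be given to one of the 2 genes.

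Krt14 and Krt16 are next to each other on chromosome 11 and share a run of 134 bases, within coding bases 286 to 459 of Krt14 and 262 to 435 of Krt16.
Krt14: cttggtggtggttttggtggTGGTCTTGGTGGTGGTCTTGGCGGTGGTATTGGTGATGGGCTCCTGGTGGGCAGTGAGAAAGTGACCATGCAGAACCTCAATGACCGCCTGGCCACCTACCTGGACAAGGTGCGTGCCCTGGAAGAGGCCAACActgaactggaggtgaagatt
Krt16: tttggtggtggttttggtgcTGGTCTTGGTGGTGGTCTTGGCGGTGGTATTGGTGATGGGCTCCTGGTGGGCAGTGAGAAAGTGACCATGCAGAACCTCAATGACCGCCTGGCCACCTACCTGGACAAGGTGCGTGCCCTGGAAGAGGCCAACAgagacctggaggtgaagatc
Krt17, the next gene after Krt16, is more distant, and the longest run found in all 3 genes is 55 bases long.
Krt16: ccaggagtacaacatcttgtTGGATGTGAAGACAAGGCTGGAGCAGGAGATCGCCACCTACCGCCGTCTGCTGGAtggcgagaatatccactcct
Krt17: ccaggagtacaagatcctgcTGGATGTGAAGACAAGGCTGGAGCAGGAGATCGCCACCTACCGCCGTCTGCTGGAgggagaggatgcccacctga
Krt14: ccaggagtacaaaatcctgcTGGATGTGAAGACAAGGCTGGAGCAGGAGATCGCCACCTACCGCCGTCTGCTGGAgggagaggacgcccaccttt
The longest run that Krt5 shares with a keratin listed here is 140 bases, with Krt6a, against 16 bases with its filament partner Krt14.

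The promoter table of RefSeq (build GRCm38.p6), which gives 250 bases before and 50 after a start site, matched 4 of the 10 genes by symbol: Krt5, Krt14, Krt8 and Krt18. Those of Krt5, the most evenly expressed gene of the set, and Krt8 are printed because the AP-1 subunit c-Fos was the gene induced. The Krt14 entry starts outside the coding transcript used above and is not shown. The searched motifs were the AP-1 site TGANTCA, the related site TGACGTCA and the box TATAAA, on both strands. Capitals mark a match.
Krt5, chr15:101712856-101713155, minus strand: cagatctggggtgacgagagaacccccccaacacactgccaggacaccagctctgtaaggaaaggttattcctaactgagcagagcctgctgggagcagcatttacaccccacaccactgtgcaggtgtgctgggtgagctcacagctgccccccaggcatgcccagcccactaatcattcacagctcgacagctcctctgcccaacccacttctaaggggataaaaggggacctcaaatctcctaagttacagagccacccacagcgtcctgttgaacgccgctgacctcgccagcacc
Krt8, chr15:102004293-102004592, minus strand: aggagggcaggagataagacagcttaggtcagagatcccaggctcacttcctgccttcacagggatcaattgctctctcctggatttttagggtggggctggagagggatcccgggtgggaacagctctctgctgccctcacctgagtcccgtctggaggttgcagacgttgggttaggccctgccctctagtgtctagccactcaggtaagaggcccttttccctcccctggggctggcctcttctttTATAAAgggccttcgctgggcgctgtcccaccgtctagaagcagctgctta
None of the 4 windows held TGANTCA or TGACGTCA, which occur in 7.81% and 1.79% of all 32851 promoters in the table, and the Krt8 window held TATAAA, as do 13.6% of promoters. A missing match says only that these letters are absent from these 300 bases. The Krt14 window starts outside the coding transcript used above, so the promoter of that transcript was not searched.

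The basal pair Krt5 and Krt14 was by far the most abundant and differed in how it responded to c-Fos. Krt5 stood at 7151 and 7046 CPM with afatinib, 8255 and 8683 CPM with UO126, 8136 and 8492 CPM with DMSO, and 8574 and 8618 CPM in the empty-vector libraries. Only the afatinib libraries stood apart, below all others. Krt14 stood at 7229 and 7023 CPM with afatinib, 9021 and 9461 CPM with UO126, 7499 and 7827 CPM with DMSO, and 5499 and 5456 CPM in the empty-vector libraries. Every c-Fos library was therefore above both empty-vector libraries, and the UO126 libraries were the highest. Corrected for transcript length as deposited, Krt14 reached 4644 ± 141 CPM per kb with DMSO and 3320 ± 18.5 in the empty vector (SD, n = 2 each), against 3816 ± 116 and 3945 ± 14.3 CPM per kb for Krt5 in the same groups. The order of the basal pair in level per kb thus turned round, with Krt14 above Krt5 in all 6 c-Fos libraries and below it in both empty-vector libraries. In the empty vector the other members followed per kb with Krt17 at 1729, Krt6a at 247, Krt16 at 34, Krt6b at 9.26, Krt15 at 5.99 and Krt8 at 0.0889 CPM per kb.

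**Figure D2:**
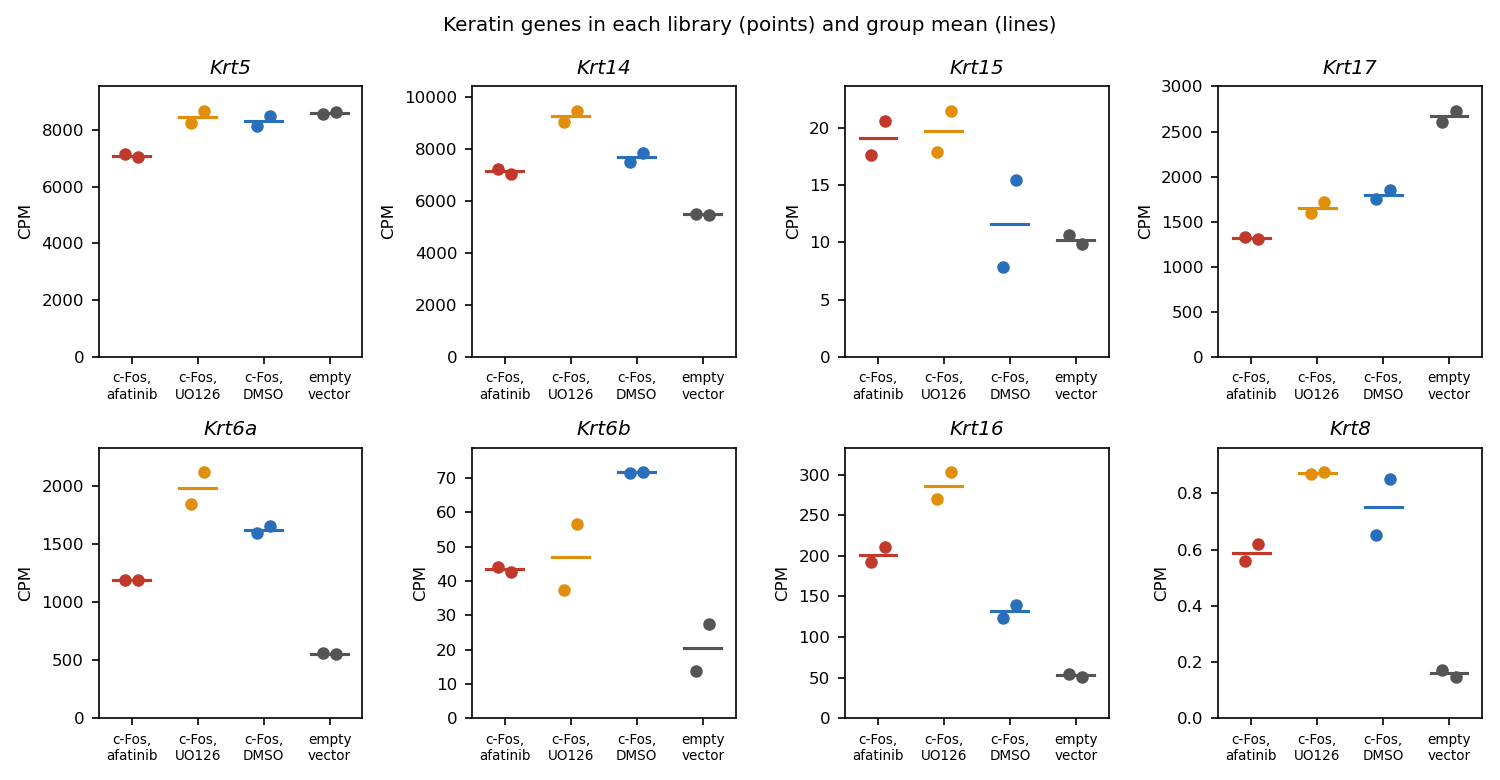
Level of the 8 tested keratin genes in CPM (vertical axes, each from 0) in every library, with 2 points per group and a line at the group mean. All c-Fos libraries lie above the empty-vector libraries for Krt14, Krt6a, Krt6b, Krt16 and Krt8 and below them for Krt17. Krt8 entered the test only through the c-Fos libraries, so its difference was partly built in.

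Among the activation keratins, Krt6a, Krt6b and Krt16 lay higher in every c-Fos library than in the empty vector, and Krt17 lay lower. Krt6a stood at 1191 and 1188 CPM with afatinib, 1842 and 2118 CPM with UO126, 1592 and 1651 CPM with DMSO, and 560.2 and 551 CPM in the empty-vector libraries. No groups overlapped. Krt16, the usual type I partner of Krt6, stood at 192 and 211 CPM with afatinib, 269.5 and 303 CPM with UO126, 124 and 139.9 CPM with DMSO, and 55 and 51 CPM in the empty-vector libraries. Its groups did not overlap either, but here the afatinib libraries lay above the DMSO libraries. Krt6b was sparser and uneven, at 44.2 and 42.7 CPM with afatinib, 37.3 and 56.7 CPM with UO126, 71.5 and 71.7 CPM with DMSO, and 13.8 and 27.4 CPM in the empty-vector libraries. The afatinib and UO126 groups overlapped, and the empty-vector libraries lay lowest. Krt17 stood at 1328 and 1304 CPM with afatinib, 1594 and 1719 CPM with UO126, 1749 and 1851 CPM with DMSO, and 2603 and 2732 CPM in the empty-vector libraries, with the groups in that order and without overlap.

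The remaining members were scarce. Krt15 stood at 17.6 and 20.6 CPM with afatinib, 17.9 and 21.5 CPM with UO126, 7.86 and 15.4 CPM with DMSO, and 10.6 and 9.86 CPM in the empty-vector libraries. Its DMSO libraries differed from each other more than any other pair for this gene and lay on both sides of the empty-vector libraries. Of the simple-epithelium keratins, Krt8 had 11.5 and 13.5 counts with afatinib, 19.5 and 19 with UO126, 12 and 15 with DMSO, and 4 and 3 in the empty-vector libraries. It entered the test only through the c-Fos libraries, so that a difference from the empty vector was partly built in. Krt18, the filament partner of Krt8, had 1 count in each DMSO library and 0 in the other 6. A count of 0 allows up to 3 counts, or between 0.13 and 0.146 CPM in those libraries, which covers counting error only. Krt19 had at most 6 counts and overlapped in all groups. Under 1% of the 50-base windows of Krt18 and none of those of Krt19 are shared with another annotated gene.

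The comparison of DMSO-treated c-Fos cells with the empty vector asks what c-Fos induction changed, in a study titled around the passage from basal to squamous carcinoma. Leaving aside Krt8, which entered the test only through the c-Fos libraries, 4 of 7 keratins rose and 1 fell, where 21.5% of all 12879 tested genes rose and 20.7% fell, 42.2% in all (edgeR quasi-likelihood test, adjusted p under 0.05). The median log2 fold change was 0.48 over those 7 keratins and -0.005 over all tested genes. Krt6a rose most firmly, at 1621 ± 41.1 CPM with DMSO against 555 ± 6.76 CPM in the empty vector. Its log2 fold change was 1.55 ± 0.068 (SE), or 2.92-fold (adjusted p = 1.2e-09). Krt16 rose 2.49-fold, by 1.32 ± 0.085 on the log2 scale (adjusted p = 5.0e-08). Krt14 rose 1.4-fold, a smaller change of 0.48 ± 0.056 on the log2 scale (adjusted p = 1.4e-05). Krt17 fell, at -0.57 ± 0.061 on the log2 scale (adjusted p = 6.4e-06), which set it apart in direction from the other activation keratins. Krt6b rose by 1.81 ± 0.36 (adjusted p = 0.014) on the log2 scale. Krt8 was at 2.19 ± 0.47 (adjusted p = 0.0021), a difference partly built in by the filter. Krt5 was at -0.05 ± 0.056 (adjusted p = 0.52) and Krt15 at 0.17 ± 0.29 (adjusted p = 0.68).

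The call of Krt6b ended without DMSO replicate 1 (adjusted p = 0.058), without DMSO replicate 2 (0.076) and in a fit to only the compared libraries (0.073), and for Krt15 the log2 fold change was 0.60 and called (adjusted p = 0.013) without DMSO replicate 1 but -0.39 without DMSO replicate 2. Krt14, Krt16 and Krt17 summed as if they were 1 gene rose by 0.23 (adjusted p = 0.0056), but most of that sum is Krt14, so its direction says little of Krt17, which shares 3.99% of its 50-base windows and none of 100 bases.

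**Figure D3:**
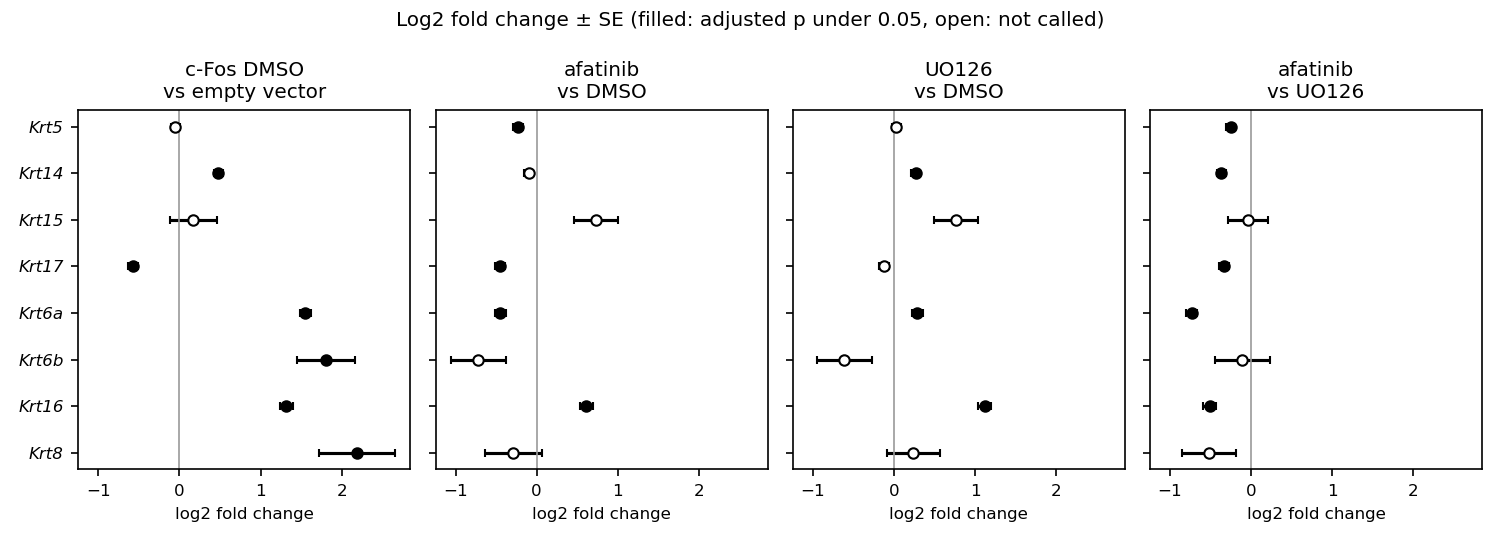
Log2 fold change (horizontal axes) with its SE for 8 keratin genes in 4 comparisons, each with the first-named group over the second. Filled points passed the test and open points did not. The point of Krt8 for c-Fos against the empty vector was partly built in by the filter. With c-Fos, Krt6a (1.55) and Krt16 (1.32) lie to the right and Krt17 (-0.57) to the left, and against UO126 no keratin is higher with afatinib.

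Afatinib against DMSO asks what 6 h of EGFR family block changed in cells that already held c-Fos. Of the 8 tested keratins, 1 rose and 3 fell, where 21.2% of all tested genes rose and 21.5% fell, 42.7% in all, and the median over the keratins was -0.26. Krt6a fell to 1189 ± 1.88 CPM with afatinib, against 1621 ± 41.1 CPM with DMSO, or -0.45 ± 0.067 on the log2 scale (edgeR adjusted p = 1.3e-04). Krt17 fell by 0.45 ± 0.061 on the log2 scale (adjusted p = 5.4e-05). Krt16 moved the other way and rose by 0.61 ± 0.081 (adjusted p = 5.1e-05). Krt5 fell slightly, at -0.23 ± 0.056 on that scale (adjusted p = 0.0049), but not past the test without DMSO replicate 2 (0.087) or afatinib replicate 2 (0.068). Krt14 was at -0.10 ± 0.056 (adjusted p = 0.15), Krt6b at -0.72 ± 0.34 (0.16), Krt15 at 0.73 ± 0.27 (0.072) and Krt8 at -0.29 ± 0.35 (0.58). Whether Krt6b was called depended on the fit. It was called lower in a fit to only the compared libraries (-0.71, edgeR adjusted p = 4.5e-13). The same held without robust estimation (-0.72, adjusted p = 0.025) and with no low-count filter (-0.71, adjusted p = 5.5e-15). Krt15 was at 1.31 and called without DMSO replicate 2 (adjusted p = 1.3e-04) but at 0.32 and not called without DMSO replicate 1 (0.13), and with the sum of Krt14, Krt16 and Krt17 in place of the 3 genes, a sum that is mostly Krt14, the value was -0.15 (adjusted p = 0.046).

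UO126 against DMSO asks the same of the kinases MEK1 and MEK2. Here the induced gene Fos was itself lower with UO126, at -0.44 ± 0.08 on the log2 scale (edgeR adjusted p = 0.0015). With afatinib against DMSO, Fos was not called (-0.06 ± 0.08, edgeR adjusted p = 0.57). The part of the lower Fos level in the keratin results was not tested. Of the 8 tested keratins, 3 rose and 0 fell, where 13.9% of all tested genes rose and 14.7% fell, 28.6% in all, and the median over the keratins was 0.25. None fell at an adjusted p under 0.05 by the DESeq2 Wald test either, and at an unadjusted p under 0.05 by edgeR none fell. Krt16 rose to 286 ± 23.5 CPM with UO126, against 132 ± 11.1 CPM with DMSO, which is 2.17-fold or 1.12 ± 0.081 on the log2 scale (adjusted p = 6.0e-07). Krt6a rose 1.22-fold, by 0.29 ± 0.067 (adjusted p = 0.0057), and Krt14 rose 1.21-fold, by 0.27 ± 0.056 (adjusted p = 0.0029). Krt5 was at 0.03 ± 0.056 (adjusted p = 0.76), Krt17 at -0.12 ± 0.061 (0.16), Krt6b at -0.61 ± 0.34 (0.25), Krt15 at 0.77 ± 0.27 (0.079) and Krt8 at 0.24 ± 0.33 (0.65). Krt15 was again called without DMSO replicate 2, at 1.34 (adjusted p = 2.6e-04), but stood at 0.36 without DMSO replicate 1 (0.12). The 2 inhibitor comparisons share their DMSO libraries, so the next comparison sets the drugs directly against each other.

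Afatinib against UO126 gave lower levels of the abundant keratins with afatinib. Fos was higher with afatinib than with UO126, at 0.37 ± 0.08 on the log2 scale (edgeR adjusted p = 0.0084), and its part was not tested. Of the 8 tested, 0 rose and 5 fell, where 7.14% of all tested genes rose and 7.14% fell, 14.3% in all, and the median over the keratins was -0.35. Krt6a stood at 1189 ± 1.88 CPM with afatinib and 1980 ± 195 CPM with UO126, which is -0.73 ± 0.067 on the log2 scale (edgeR adjusted p = 1.5e-05). Krt16, though above DMSO with both drugs, was lower with afatinib by -0.51 ± 0.08 on the log2 scale (adjusted p = 0.0011). Krt14 was lower by -0.37 ± 0.056 (adjusted p = 7.9e-04), Krt17 by -0.33 ± 0.061 (0.003) and Krt5 by -0.25 ± 0.056 (0.0085). Krt8 was at -0.52 ± 0.33 (adjusted p = 0.34), Krt6b at -0.11 ± 0.34 (0.87) and Krt15 at -0.04 ± 0.25 (0.94). No keratin was higher at an adjusted p under 0.05 by the DESeq2 Wald test, or at an unadjusted p under 0.05 by edgeR. The call of Krt5 ended without afatinib replicate 1 (adjusted p = 0.066) or 2 (0.091).

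Set against the empty vector, the inhibitor groups show how far each keratin stood from its level in cells without induced c-FOS, which are other cells and not the same ones before induction. Leaving Krt8 aside again, 4 of 7 keratins were higher and 2 lower with afatinib, where 21.7% of all tested genes were higher and 23.4% lower, 45.1% in all. With UO126 4 of the 7 were higher and 1 lower, where 18.3% of all tested genes were higher and 19.4% lower, 37.7% in all. Krt16 was 3.8-fold higher with afatinib and 5.4-fold higher with UO126 than in the empty vector, log2 fold changes of 1.93 ± 0.085 and 2.43 ± 0.086 (edgeR adjusted p = 9.9e-10 and 1.7e-10). Krt6a was 2.14-fold higher with afatinib and 3.56-fold higher with UO126, at 1.10 ± 0.068 and 1.83 ± 0.069 (adjusted p = 2.4e-08 and 3.2e-10). Krt14 was at 0.38 ± 0.056 with afatinib and 0.75 ± 0.056 with UO126 (adjusted p = 9.8e-05 and 1.9e-07). Krt17 was lower with both, at -1.02 ± 0.061 and -0.69 ± 0.061 (adjusted p = 1.8e-08 and 1.0e-06), and Krt5 was lower with afatinib alone at -0.28 ± 0.056 (adjusted p = 0.0012). Krt15 passed with afatinib at 0.90 ± 0.27 and with UO126 at 0.94 ± 0.27 (adjusted p = 0.033 and 0.032). Those 2 calls ended when either library of a compared group was left out, and that with afatinib also without either UO126 library, with adjusted p between 0.057 and 0.18. Krt6b did not pass, at 1.09 ± 0.37 with afatinib and 1.20 ± 0.36 with UO126 (adjusted p = 0.067 and 0.058), though by the DESeq2 Wald test it did (adjusted p = 0.017 and 0.01). Krt8, for which a difference from the empty vector was partly built in, was at 1.90 ± 0.48 with afatinib and 2.42 ± 0.44 with UO126 (adjusted p = 0.0052 and 6.4e-04).

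Across the 4 groups the keratins therefore did not share one order. Krt16 ran from the empty vector through DMSO and afatinib to UO126, and Krt6a from the empty vector through afatinib and DMSO to UO126, with each neighbouring step past the test. For Krt14 the order was that of Krt6a, but afatinib and DMSO could not be separated. Krt17 ran downward from the empty vector through DMSO and UO126 to afatinib, with DMSO and UO126 not separated. For Krt5 the UO126, DMSO and empty-vector groups could not be separated.

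Because these genes were counted in the same libraries, their ratios do not depend on library size. The level of Krt14 per kb was 1.33 and 1.32 times that of Krt5 with afatinib, 1.44 and 1.44 times with UO126, 1.22 and 1.22 times with DMSO, and 0.847 and 0.836 times in the empty-vector libraries. The ratio of Krt16 to Krt17 was 0.143 and 0.16 with afatinib, 0.168 and 0.174 with UO126, 0.0704 and 0.0749 with DMSO, and 0.0209 and 0.0185 in the empty vector. Both ratios were lowest in the empty vector and higher with either inhibitor than with DMSO. The ratio of Krt16 to its usual partner Krt6a had another order, at 0.245 ± 0.0166 with afatinib, 0.209 ± 0.00348 with UO126, 0.117 ± 0.00688 with DMSO and 0.138 ± 0.00566 in the empty vector, so that DMSO was lowest. The ratio of Krt16 to Krt14, its far more abundant neighbour, was also not constant, at 0.03 ± 0.0026 with afatinib, 0.0328 ± 0.00159 with UO126, 0.0182 ± 0.00098 with DMSO and 0.0103 ± 0.000489 in the empty vector (SD, n = 2 each). The ratio of Krt6b to Krt6a, by contrast, spread from 0.0249 to 0.0502 between the 2 empty-vector libraries alone, where Krt6a itself hardly differed. Type I members summed to 1.4 ± 0.0104 times the type II members per kb with afatinib, 1.43 ± 0.0146 times with UO126, 1.29 ± 0.00529 times with DMSO and 1.21 ± 0.00474 times in the empty vector. With 2 libraries a group, the smallest p that a two-sided exact permutation test allows is 0.333, so the ratios are given as values.

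**Figure D4:**
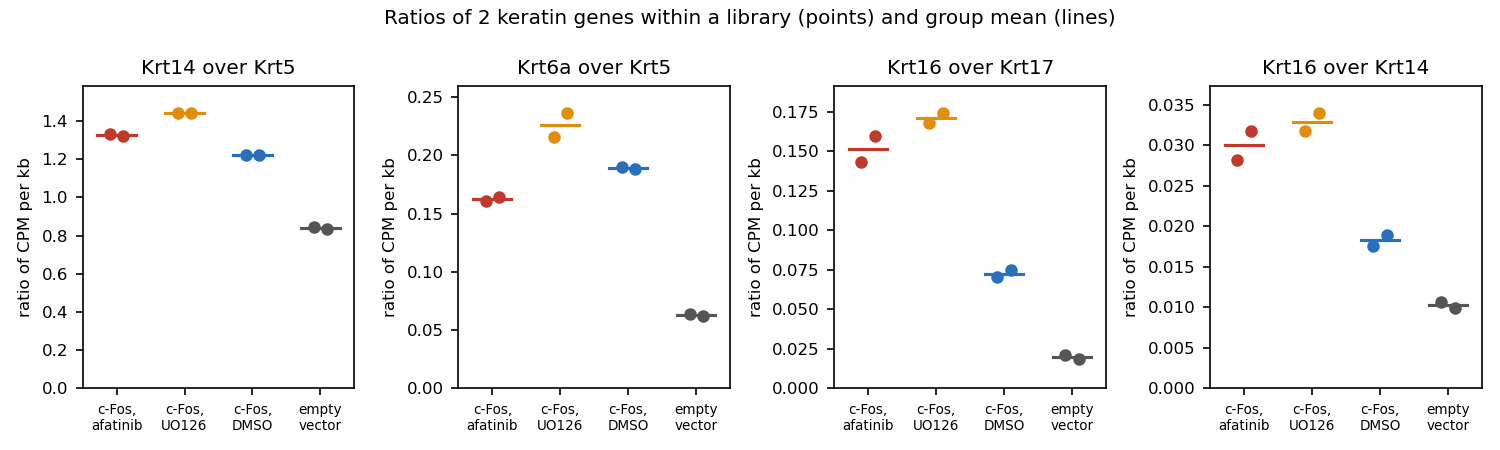
Ratio of the levels per kb of 2 keratin genes within each library (points, vertical axes from 0), with a line at the mean of each group of 2 libraries. In these 4 ratios, unlike that of Krt16 to Krt6a, the empty-vector libraries are lowest, and Krt14 passes Krt5 (a ratio above 1) only in c-Fos libraries.

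Taking the 10 genes as one pool, the summed level was 17153 and 16837 CPM with afatinib, 21037 and 22363 CPM with UO126, 19181 and 20048 CPM with DMSO, and 17316 and 17445 CPM in the empty-vector libraries. Krt5 made up 35.7 ± 0.114% of the pool per kb with afatinib, 33.3 ± 0.223% with UO126, 36.4 ± 0.049% with DMSO and 42.5 ± 0.0948% in the empty vector. Krt17 made up 9.35 ± 0.00639% with afatinib, 9.21 ± 0.101% with UO126 and 11.1 ± 0.0919% with DMSO, against 18.6 ± 0.529% in the empty vector. Krt6a made up 5.8 ± 0.07% with afatinib, 7.55 ± 0.425% with UO126 and 6.89 ± 0.0433% with DMSO, against 2.66 ± 0.048% in the empty vector. Krt16 stayed a minor part, at 1.42 ± 0.114% with afatinib, 1.57 ± 0.0624% with UO126, 0.809 ± 0.0424% with DMSO and 0.366 ± 0.0217% in the empty vector. Krt14 made up 47.4 ± 0.318% with afatinib, 48 ± 0.42% with UO126 and 44.3 ± 0.0605% with DMSO, against 35.7 ± 0.408% in the empty vector. The basal pair was the bulk of the pool in every group, and the shares of Krt14 and Krt6a were higher, and those of Krt5 and Krt17 lower, in every c-Fos library than in the empty vector.

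**Figure D5:**
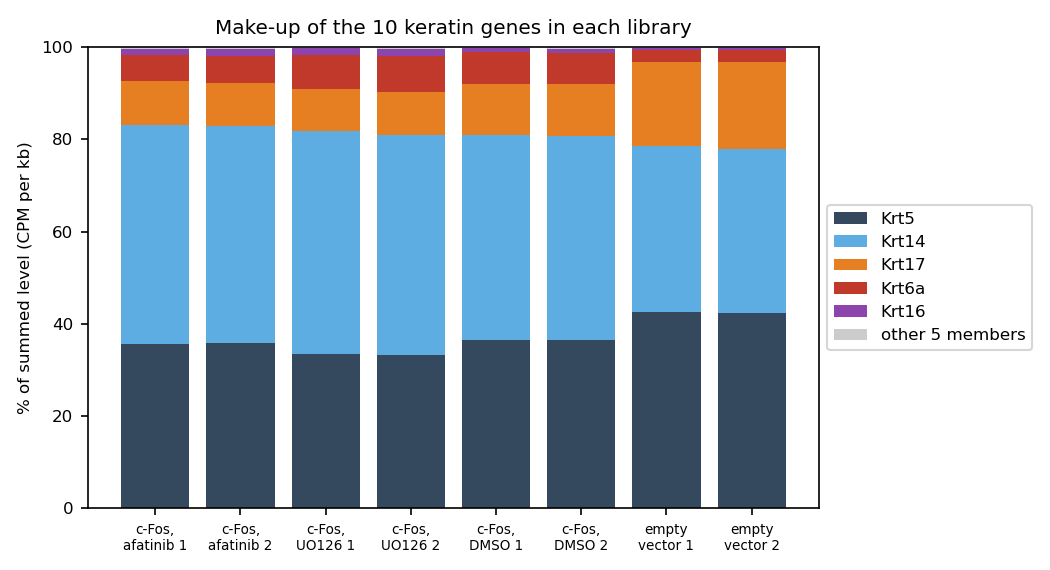
Make-up of the 10 keratin genes in each library, as % of their summed level in CPM per kb (stacked bars from 0 to 100). The Krt17 band is widest in the 2 empty-vector libraries (18.6% on average) and the Krt6a band narrowest (2.66%).

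Other keratin genes were mostly near 0. Of 45 further keratin symbols, 36 were below the filter, with at most 19 counts in any library, and 9 of those had 0 throughout. Of the 9 tested, 3 rose and 1 fell with c-Fos against the empty vector, 1 rose and 3 fell with afatinib against DMSO, 1 rose and 0 fell with UO126 against DMSO, and 0 rose and 3 fell with afatinib against UO126. In either direction these were 44.4%, 44.4%, 11.1% and 33.3% of the 9 genes in the same order of comparisons, where 42.2%, 42.7%, 28.6% and 14.3% of all tested genes were called. At an unadjusted edgeR p under 0.05 the counts of 0 were also 0. The 5 most abundant were Krt80, Krt85, Krt10, Krt42 and Krt32. Krt80, a type II keratin of differentiating epithelia, stood at 21.1 ± 3.45 CPM with afatinib, 19.4 ± 0.251 CPM with UO126, 10.5 ± 0.859 CPM with DMSO and 5.17 ± 0.419 CPM in the empty vector. It rose with c-Fos (log2 1.03 ± 0.15, edgeR adjusted p = 9.5e-05) and again with afatinib (1.00 ± 0.12, adjusted p = 2.6e-05) and UO126 (0.88 ± 0.12, adjusted p = 1.8e-04) against DMSO. Krt85, a hair keratin, rose with c-Fos by 1.52 ± 0.17 (adjusted p = 1.3e-05) and fell with afatinib by -0.50 ± 0.16 (adjusted p = 0.019). Krt42 rose by 0.94 ± 0.2 with c-Fos (adjusted p = 0.0018) and fell by -1.15 ± 0.2 with afatinib (adjusted p = 5.0e-04). Krt10, the type I keratin of the suprabasal epidermis, was at 4.25 ± 0.185 CPM with DMSO and 4.9 ± 0.381 CPM in the empty vector and did not pass (adjusted p = 0.35). Krt32, another hair keratin, passed in no comparison.

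Genes that anchor and link keratin filaments moved in both directions. Of 16 linker and anchor genes tested, 9 rose and 3 fell with c-Fos against the empty vector, 7 rose and 5 fell with afatinib against DMSO, 4 rose and 7 fell with UO126 against DMSO, and 2 rose and 0 fell with afatinib against UO126 (0 also at an unadjusted edgeR p under 0.05). In either direction these were 75%, 75%, 68.8% and 12.5% of the list in the same order of comparisons, where 42.2%, 42.7%, 28.6% and 14.3% of all tested genes were called. Ppl, which encodes the plakin periplakin, rose with c-Fos and again with both inhibitors, standing at 575 ± 1.12 CPM with afatinib, 595 ± 9.6 CPM with UO126, 440.1 ± 9.95 CPM with DMSO and 143 ± 3.91 CPM in the empty vector. Evpl, for its partner envoplakin, rose by 1.39 ± 0.059 with c-Fos but fell with afatinib (-0.60 ± 0.058) and with UO126 (-0.69 ± 0.058) against DMSO. The linker gene Dst fell with c-Fos, by -1.05 ± 0.073 (edgeR adjusted p = 8.2e-08). It stood at 2151 ± 199.8 CPM with DMSO and 4463 ± 327 CPM in the empty vector. Itgb4, the integrin subunit that ties keratins to the hemidesmosome, rose by 0.70 ± 0.069 with c-Fos and fell by -0.64 ± 0.069 with afatinib and -0.65 ± 0.069 with UO126. Its partner Itga6 and the desmosomal gene Jup were the only linkers that differed between the drugs, both higher with afatinib, by 0.24 ± 0.065 and 0.23 ± 0.063 (edgeR adjusted p = 0.026 and 0.025). The adjusted p-values of the calls named here on Ppl, Evpl and Itgb4 reached at most 1.0e-04, for Ppl with afatinib against DMSO.

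Of 5 tested genes for other intermediate filaments, 2 rose and 0 fell with c-Fos, and 0 rose and 3 fell with each inhibitor against DMSO, the counts of 0 being 0 at an unadjusted edgeR p under 0.05 as well. These were 40% of the 5 with c-Fos and 60% with each inhibitor, where 42.2% of all tested genes were called with c-Fos, 42.7% with afatinib and 28.6% with UO126. Those that rose were Vim, the mesenchymal filament gene (log2 4.47 ± 0.093, edgeR adjusted p = 2.0e-12), and the nuclear lamin gene Lmna (1.18 ± 0.059, edgeR adjusted p = 3.6e-09). Vim stood at 37.7 ± 1.01 CPM with afatinib, 42.9 ± 0.551 CPM with UO126, 79.7 ± 1.23 CPM with DMSO and 3.59 ± 0.21 CPM in the empty vector. Vim, Lmna and Lmnb1 fell with both drugs, Lmna to 1283 ± 15.3 CPM with afatinib and 1220 ± 64.3 CPM with UO126, against 1585 ± 19.6 CPM with DMSO. None of the 5 differed between the drugs at an adjusted p under 0.05, and Vim alone did at an unadjusted p under 0.05. Krt16, by contrast, was higher with both drugs than with DMSO.

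Among 24 genes for transcription factors chosen here as possible regulators of keratin genes, all of them tested, 5 rose and 6 fell with c-Fos against the empty vector. With afatinib 8 rose and 6 fell against DMSO, with UO126 11 rose and 3 fell against DMSO, and 2 rose and 7 fell with afatinib against UO126. In either direction these were 45.8%, 58.3%, 58.3% and 37.5% of the list in the same order of comparisons, where 42.2%, 42.7%, 28.6% and 14.3% of all tested genes were called, so the share with c-Fos was near that of all genes. Fosl1, which encodes an AP-1 subunit, stood at 7.99 ± 0.124 CPM with afatinib, 14.3 ± 0.86 CPM with UO126, 32.1 ± 2.14 CPM with DMSO and 2.04 ± 0.0683 CPM in the empty vector. Fosl2, for another subunit, rose with afatinib by 0.95 ± 0.066 and with UO126 by 0.78 ± 0.066 against DMSO (edgeR adjusted p = 1.6e-07 and 2.4e-06). Cebpb, for a factor of differentiating keratinocytes, rose by 1.11 ± 0.08 with afatinib and 0.60 ± 0.08 with UO126 (adjusted p = 2.1e-07 and 1.3e-04). Ovol1, for a repressor that acts when keratinocytes leave the cycle, moved in opposite directions, falling by -0.37 ± 0.12 with afatinib and rising by 0.49 ± 0.11 with UO126 (adjusted p = 0.025 and 0.0054). Its difference between the drugs was -0.87 ± 0.11 (adjusted p = 3.2e-04). Tfap2c, for an AP-2 factor, rose by 1.66 ± 0.15 with c-Fos, and Jun, the usual partner of Fos, fell by -0.88 ± 0.065 (adjusted p = 1.5e-06 and 1.7e-07). None of these values was tested for a link to a keratin.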

How the data were processed

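Expected counts per gene symbol were deposited by the authors in multiples of 0.5, not normalized. The series design text names TopHat, then HOMER, for isoform-level analysis of the filtered reads, and per the submitters' processing notes the build was mm9 (DESeq2 is listed with no role). No versions are given in the sources used here. The deposited table has 1 entry per symbol. Of 24909 entries, 26 with symbols turned into dates were left out.

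Counts were rounded to whole numbers and fitted in R 4.3.3 with edgeR 4.0.16: genes filtered by expression (minimum count 10, minimum total 15), trimmed mean of M-values scaling, and a robust quasi-likelihood fit to the 8 libraries together, in which every group had its own coefficient, leaving 4 residual degrees of freedom. P-values were two-sided and Benjamini-Hochberg adjusted over the 12879 genes tested in each of 6 comparisons, and called under 0.05. SEs come from the F statistic. DESeq2 1.42.0 was an alternative. Scripts were tested on simulated data. Precision is limited by 2 libraries per group. Between libraries of a group the chi-square per degree of freedom was 4.85 to 25.1, so none was deposited under 2 names. The members, lists and alternatives were chosen with earlier results of these data known. Named were all 10 keratins, Fos, the 5 most abundant other keratins and, per list, genes among the 3 lowest adjusted p-values of a comparison. The deposited table gives no coordinates.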

Additional observations from a re-analysis of the deposited data

How the results depend on the processing

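Of 856 recomputed member values, 790 kept their direction and side of the threshold, 19 lost a call, 32 gained one and 15 changed sign. Giving every gene the call of its summed copies turned Krt17 to 0.23 with c-Fos, 0.22 with UO126 against DMSO, and 0.45 with UO126 and 0.08 with afatinib against the empty vector. It turned Krt16 to -0.15 with afatinib and Krt6b to 0.26 with UO126 against DMSO, since Krt14 and Krt6a dominate the sums. Counts of members then became 0 lower with c-Fos, 0 higher and 6 lower with afatinib and 5 higher with UO126 against DMSO, and 1 lower with afatinib and 0 lower with UO126 against the empty vector. In these counts the result of a sum stands once for each gene in it, so they do not number separate tests. Leaving out each library turned uncalled values only: Krt15 lay between -0.39 and 0.60 with c-Fos and between -0.16 and 0.10 (0.08 without afatinib replicate 1) between the drugs, and Krt6b between -0.38 and 0.22 between the drugs. Krt5 lay between -0.08 and 0.01 with c-Fos, between -0.01 and 0.08 for UO126 against DMSO, and between -0.03 and 0.03 (0.00 and 0.01 among them) for UO126 against the empty vector.

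With afatinib against DMSO, 2 keratins were higher with no low-count filter, without robust estimation and with the replicate block, Krt15 being added, and between 1 and 2 when a library was left out. With UO126 against DMSO, 1 was lower with no low-count filter, namely Krt6b. The cause was not tested. Same-numbered libraries did not deviate together (correlations between groups from -0.302 to 0.15). These values give no sign that the numbers pair them, but cannot exclude pairing with a small shared effect. The replicate block also added calls of Krt15 with UO126 against DMSO (0.79, adjusted p = 0.03) and of Krt6b with afatinib and UO126 against the empty vector (1.12 and 1.21, adjusted p = 0.038 and 0.036).

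Counts over all genes also moved. Leaving out each library gave 1661 to 3085 lower genes with c-Fos, 1692 to 3205 lower with afatinib against DMSO, and 913 to 2051 higher and 968 to 2063 lower with UO126 against DMSO. It gave 391 to 1316 higher and 307 to 1102 lower between the drugs, where a fit to only the compared libraries gave 481 and 505. Against the empty vector it gave 1953 to 3232 lower with afatinib and 1476 to 2452 lower with UO126. Depth limits Krt8, Krt18 and Krt19, which had under 20 counts in every library.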
